A study of Mus musculus with 202 samples.

Results

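The genes described here encode the proteasome, the barrel-shaped protease that degrades ubiquitin-tagged proteins, together with the chaperones that build it. They were all the symbols of the count table that start with Psm, then 1 of the letters a to g and a digit, and there were 50 of 23995 symbols. By textbook role they were 14 subunits of the standard core particle (7 alpha and 7 beta), 17 of the regulatory particle (6 base ATPases and 11 other base and lid subunits), 5 inducible or tissue-specific core subunits, 5 activators, 1 inhibitor and 7 assembly chaperones. Psmc3ip matched the name pattern but encodes a partner of the meiotic recombinases and not a proteasome protein. Its F2 fold is given apart, but it is counted among the 50 members and among the members tested over animals. It did not enter the pooled comparisons.

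Each library was 1 mouse oocyte of strain C57Bl/6J, labelled as arrested at metaphase II, read with Smart-seq2, a full-length method for single cells that counts reads and not molecules. The 202 oocytes fell into 11 groups by generation and by what the founding F0 female had received. She had been given a high fat and high sugar diet with dihydrotestosterone, an androgen (HFHS+DHT), a control diet with dihydrotestosterone (CD+DHT), the rich diet with vehicle (HFHS+Veh), or the control diet with vehicle (CD+Veh). The series asks whether androgen exposure before birth is passed on across generations as a susceptibility to polycystic ovary syndrome. Of the oocytes, 157 had at least 100000 gene counts and 4000 detected genes and were used. They were 13 HFHS+DHT, 8 CD+DHT, 14 HFHS+Veh and 10 CD+Veh oocytes in F1, 5 HFHS+DHT, 25 CD+DHT, 20 HFHS+Veh and 16 CD+Veh oocytes in F2, and 13 CD+DHT, 13 HFHS+Veh and 20 CD+Veh oocytes in F3. The treatment was given to F0 alone as far as the labels say, so F1 to F3 females are its descendants.

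The titles number the animals of F2 CD+DHT, HFHS+Veh and CD+Veh and of F3 HFHS+Veh before a point, an inference that makes animals the replicates there. The remaining groups name no animal, and each was treated as 1 sample, with no test. The labels of 36 oocytes contradicted their titles. Of these, 20 named the other hormone treatment (all F2 HFHS+DHT oocytes and F1 HFHS+Veh oocytes), and 16 named the other generation (8 titled F2 HFHS+Veh, including all of animal 10, and 8 titled F3 HFHS+Veh, all of animal 22). Some counts of members that rest on oocytes of contradictory generation are given with and without them. The calls of F3 against F2 by role, the counts over all lineages and those of other pathway genes are given only with them. Values of single members and oocytes mostly are too. For the hormone labels no oocyte of those groups would be left. Gene counts in the oocytes used ran from 133654 to 16359078, so the precision behind each value differed widely. The median oocyte had 972734 counts and 9539 genes in F1, 3411646 counts and 10036.5 genes in F2, and 1305465 counts and 7606 genes in F3. ERCC spike-in reads made up a median of 0.485% in F1, 0.0950% in F2 and 0.319% in F3. All 14 oocyte markers were detected, but their summed level varied widely between the oocytes used. It ran from 280.8 to 59554 counts per 1000000 gene counts, with a median of 28347. The lowest sum was that of an F3 CD+Veh oocyte, in a group with a median of 21039. In F2 HFHS+Veh the lowest was 4415, beside a group median of 29824. The 32 cumulus and granulosa markers, from the cells that surround the oocyte, summed to a median of 1330 counts per 1000000 gene counts (CPM), and 4 oocytes stood apart above 7704 CPM: F1 HFHS+Veh 1 and F3 CD+Veh 17, 19 and 21. Of these markers Serpine2 had the highest median, 836.1 CPM, and was detected in all 157 oocytes. Most of the markers had a median of 0.

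The core particle is a stack of rings. The alpha subunits form the gated outer rings and the beta subunits the inner ones, in which Psmb5, Psmb6 and Psmb7 carry the proteolytic sites. The regulatory particle docks on its ends. Its lid and base bind ubiquitin chains and remove them, and the ATPases of the base unfold the substrate. In oocytes, leaving metaphase II depends on destruction of cyclin B and securin by the proteasome, and transcription is largely silent by that stage, so the messages present are mostly stored ones.

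The members together took a median of 0.430% of an oocyte's gene counts. A single alpha subunit, Psma7, made up 26.798% of the members' summed CPM in the median oocyte. Of the 50 members, 40 were detected in 50% or more of the 157 oocytes, 11 in all of them, and 10 had a median of 0. Levels between genes were compared per length, as RPKM, reads scaled for length and library size, taken from the authors' table. Psma7 had the highest median level at 1210 RPKM and the alpha subunit Psma2 the next at 569.2 RPKM. Psma7 was above Psma2 in 138 of 157 oocytes, and Psma2 above the third member, the catalytic subunit Psmb6, in 154 of 157. Psmb6 at 133.6 RPKM and the beta subunit Psmb2 at 130.7 RPKM could not be ordered, with Psmb6 the higher in 83 of 157 oocytes. The alpha subunit Psma1 followed at 95.3 RPKM and the activator Psme4 at 92.6 RPKM, and those 2 were not ordered either, Psma1 being higher in 79 oocytes.

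**Figure D1:**
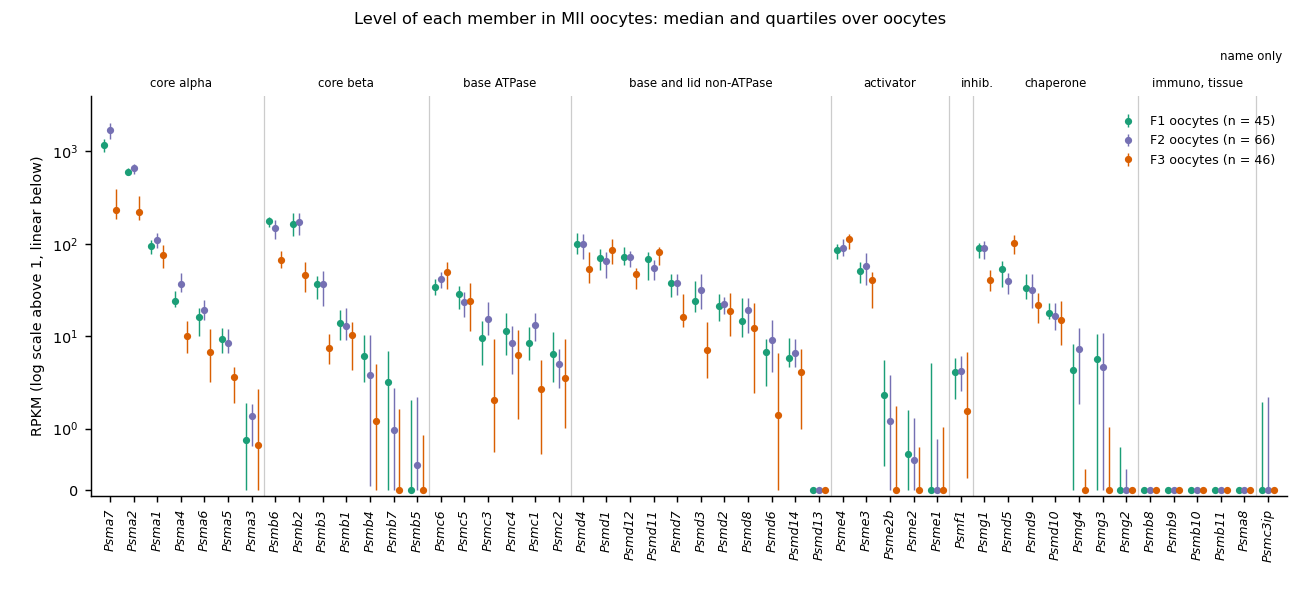
Level of each of the 50 members by role, in RPKM on a log scale, as the median (point) and quartiles (bar) over the oocytes of each generation (45 in F1, 66 in F2, 46 in F3). Psma7 and Psma2 stand at the top, most core subunits lie lower in F3 than in F1 and F2, and the inducible subunits lie at or near 0.

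Other core subunits were far lower. The catalytic subunit Psmb5 was detected in 76 of 157 oocytes with a median of 0 RPKM, and its catalytic partner Psmb7 in 95 with a median of 0.9 RPKM. The alpha subunit Psma3 had 1.1 RPKM and was detected in 122 oocytes, and the lid subunit Psmd13 was detected in 35. Such low values are uncertain where a gene has near-identical copies, since reads can be split or discarded between copies. Transcripts of 18 members matched another gene at 90% identity or more over at least 300 bases in the GENCODE vM21 annotation. Psmb5 matched the gene Gm3375 at 98.869% over 796 bases, Psma3 matched Gm13835 at 100% over 665 bases, and Psmd13 matched Sirt3 at 100% over 329 bases. Whether copies explain any low value was not tested.

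Several promoters are shown because the levels and generation values below turn on their genes. Psma7 is the most abundant member and lower in F3, Psmd5 is the member that was higher in F3, Psme4 is the most abundant activator, and Psmb5 is a catalytic subunit near 0. They are RefSeq sequences on GRCm38.p6, from 250 bases before to 50 after the gene start, printed along the gene's strand. Capitals mark CCAAT, the box bound by NF-Y, in Psma7, and TGACNNNGC, the antioxidant response element core that Nfe2l1 and Nfe2l2 recognise, in Psmb5 and Psme4. In Psme4 the capitals are its reverse complement, as it lies on the opposite strand.
Psma7 (chr2:180042415-180042714, minus strand): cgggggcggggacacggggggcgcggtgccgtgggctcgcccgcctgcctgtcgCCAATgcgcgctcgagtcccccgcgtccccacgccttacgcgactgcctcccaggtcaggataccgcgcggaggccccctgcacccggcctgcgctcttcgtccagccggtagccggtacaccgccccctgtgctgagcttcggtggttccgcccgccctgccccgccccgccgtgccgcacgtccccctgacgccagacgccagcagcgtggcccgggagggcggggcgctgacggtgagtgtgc
Psmd5 (chr2:34870913-34871212, minus strand): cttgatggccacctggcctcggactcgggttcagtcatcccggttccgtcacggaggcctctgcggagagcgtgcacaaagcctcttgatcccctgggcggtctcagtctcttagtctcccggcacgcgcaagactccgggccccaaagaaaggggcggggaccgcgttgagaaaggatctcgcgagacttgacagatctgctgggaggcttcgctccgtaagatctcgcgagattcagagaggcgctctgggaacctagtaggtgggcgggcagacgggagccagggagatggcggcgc
Psme4 (chr11:30771525-30771824, plus strand): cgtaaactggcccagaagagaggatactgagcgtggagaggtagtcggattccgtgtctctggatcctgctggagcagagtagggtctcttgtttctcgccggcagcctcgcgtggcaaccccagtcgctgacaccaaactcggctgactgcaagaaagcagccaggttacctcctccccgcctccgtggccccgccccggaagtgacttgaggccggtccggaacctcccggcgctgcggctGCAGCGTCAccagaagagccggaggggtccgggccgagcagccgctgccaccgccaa
Psmb5 (chr14:54617946-54618245, minus strand): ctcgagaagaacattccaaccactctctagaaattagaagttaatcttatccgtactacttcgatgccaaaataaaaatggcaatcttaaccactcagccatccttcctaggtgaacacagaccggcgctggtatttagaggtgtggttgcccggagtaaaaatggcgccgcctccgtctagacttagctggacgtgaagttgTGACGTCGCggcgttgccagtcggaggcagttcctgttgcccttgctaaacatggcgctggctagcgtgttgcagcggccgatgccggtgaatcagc
The CCAAT of Psma7 starts 196 bases before the gene start, and the TGACNNNGC of Psmb5 47 bases before it. On both strands, TGACNNNGC was found in 6 of the 42 member promoters given (14.29%; Psmb5, Psmb6, Psmc6, Psmd12, Psmd9 and Psme4), against 12.4% of 32851 promoters of the same length. CCAAT was found in 15 of 42 (35.7%), against 37.4%. The members' shares lay near those of all promoters, and the motifs do not overlap in letters.

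The inducible core subunits, which replace the standard catalytic ones in immune cells or after interferon, were nearly absent. Psmb8 was detected in 12 of 157 oocytes, Psmb9 in 4 and Psmb10 in 22. The thymus subunit Psmb11 was detected in 14 and the germ-line alpha subunit Psma8 in 13. The interferon-inducible activator genes Psme1 and Psme2 had medians of 0 and 0.4 RPKM, and Psme2b, which shares 99.37% of its sequence with Psme2, had 0.9 RPKM. By contrast the nuclear activators Psme4 and Psme3 had 92.6 and 49.0 RPKM. The inhibitor Psmf1 had 3.9 RPKM.

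The inducible genes and cumulus markers often, but not always, ran together. Psme1 reached 55.6 CPM in oocyte 5.1 of F2 HFHS+Veh, with 4844 CPM of cumulus markers, and 27.6 CPM in oocyte 1 of F1 HFHS+Veh, with 11215 CPM. Psmb8 and Psmb9 exceeded 5 CPM together in oocytes 1 and 7 of F1 HFHS+Veh. Psmb10, however, was highest in oocyte 4.2 of F2 HFHS+Veh, at 21.2 CPM (9 counts) with 145.9 CPM of cumulus markers. Across oocytes, Spearman's rho between the summed CPM of Psmb8, Psmb9, Psmb10, Psme1 and Psme2 and the summed cumulus markers was 0.63 in F1 (n = 45), 0.48 in F2 (n = 66) and 0.63 in F3 (n = 46), a description over libraries that share depth and preparation within a generation. The 10 leukocyte markers summed to a median of 2.49 CPM, and their defining gene Ptprc was detected in 5 oocytes. Whether cells attached to the oocytes supplied these reads was not tested.

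**Figure D2:**
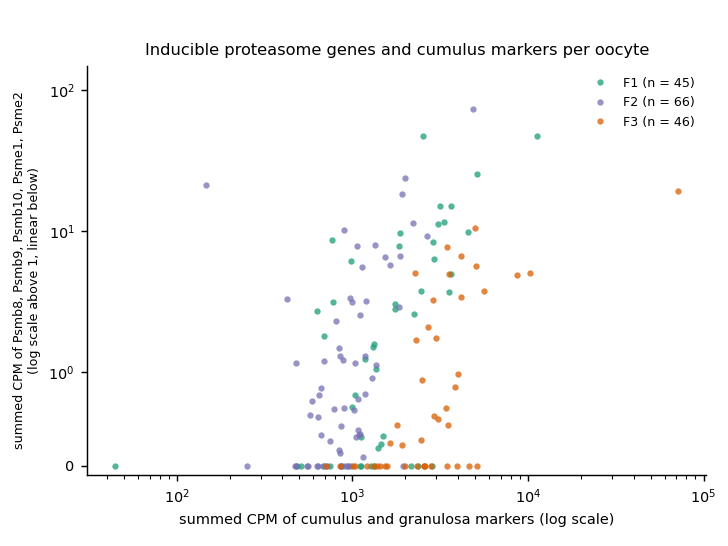
Summed CPM of Psmb8, Psmb9, Psmb10, Psme1 and Psme2 (y axis) against summed CPM of the 32 cumulus and granulosa markers (x axis), 1 point per oocyte, coloured by generation, both axes on log scales. Oocyte 5.1 of F2 HFHS+Veh is the highest, at 73.3 CPM beside 4844 CPM of cumulus markers, while oocyte 4.2 of that group has 21.2 CPM beside 145.9 CPM, with Spearman's rho of 0.63 in F1, 0.48 in F2 and 0.63 in F3.

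The chaperones that pair the alpha subunits were uneven. Psmg1 had 76.3 RPKM, Psmg4 3.5 RPKM and Psmg3 2.1 RPKM, and Psmg2 was detected in 40 oocytes. The base chaperones among the members were all detected, Psmd5 at 50.9 RPKM, Psmd9 at 29.1 RPKM and Psmd10 at 17.095 RPKM.

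In F2, the androgen and diet lineages could be compared over animals, and no member passed the test in any comparison. The counts of an animal's oocytes were added up and fitted with edgeR's quasi-likelihood test over all genes, with 5 CD+DHT, 4 HFHS+Veh and 4 CD+Veh animals in 1 fit. Of 11962 genes, 0 (0%) were called in each of the 3 comparisons at an adjusted p under 0.05, and 45 members were among those tested. At an unadjusted p under 0.05, 220 genes passed in CD+DHT against CD+Veh, 118 in HFHS+Veh against CD+Veh and 125 in CD+DHT against HFHS+Veh, of which 2, 0 and 0 were members. DESeq2 called 1 gene in each comparison and 0 members. The 3 comparisons share samples. The median log2 fold of the members was -0.09 in CD+DHT against CD+Veh, -0.09 in HFHS+Veh against CD+Veh and 0.02 in CD+DHT against HFHS+Veh, beside medians of -0.01, 0.02 and -0.02 over all genes tested. Members ran higher and lower in counts of 13 and 32, 17 and 28, and 24 and 21 in that order. Without the oocytes of contradictory generation labels, 0 genes were again called. At an unadjusted p under 0.05 by edgeR, 273 genes and 2 members then passed in HFHS+Veh against CD+Veh. In CD+DHT against HFHS+Veh 463 genes and 1 member did. The members' medians were then -0.17 and -0.02.

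The members nearest the threshold were base subunits. Psmc5, an ATPase, had 28.4, 26.75, 14.11, 15.7 and 31.8 CPM in the CD+DHT animals, against 38.2, 39.8, 32.4 and 33.98 CPM in the CD+Veh animals. All CD+DHT animals lay below all CD+Veh animals, with a log2 fold of -0.51 (SE 0.22) and an unadjusted p of 0.0367 by edgeR, but an adjusted p of 0.9999. Psmd2, the scaffold of the base, had 69.5, 69.6, 54.7, 34.2 and 71.7 CPM in CD+DHT, against 96.1, 121.3, 74.0 and 59.1 CPM in CD+Veh, and these groups overlapped. Its log2 fold was -0.39 (SE 0.18; unadjusted p 0.0465 by edgeR, adjusted 0.9999). On the higher side came the alpha subunit Psma6 at 0.50 (SE 0.28), Psmd9 at 0.41 and Psmd1 at 0.24. Psmc3ip, outside the proteasome, had a log2 fold of -1.92 (SE 1.04) at 0 to 1.001 CPM in CD+DHT animals and 0.923 to 2.72 CPM in CD+Veh animals.

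In HFHS+Veh against CD+Veh, the smallest p values belonged to Psma6 (log2 fold 0.38), the deubiquitinase subunit Psmd14 (0.27) and Psme4 (0.22) on the higher side, and to the ATPase Psmc3 (-0.44), Psmd2 (-0.24) and the ATPase Psmc6 (-0.27) on the lower side. Between CD+DHT and HFHS+Veh they were Psma2 (0.29), Psmc6 (0.25) and the beta subunit Psmb1 (0.41), and the ATPases Psmc2 (-0.79) and Psmc5 (-0.28) and the catalytic subunit Psmb7 (-1.11). None of these passed edgeR's adjusted test. Of 30 other proteasome and ubiquitin genes listed, 28 were tested and 0 called in each comparison. For CD+DHT against CD+Veh their smallest p values were those of Txnl1, a thioredoxin bound to the regulatory particle (0.39, unadjusted p 0.0449 by edgeR), Ngly1 (0.29), the ubiquitin gene Ubb (-0.50) and AI314180, the proteasome adaptor Ecpas (-0.33). In HFHS+Veh against CD+Veh they were those of Ube3c (0.37), Txnl1 (0.27) and Ubb (-0.45). For CD+DHT against HFHS+Veh they were those of Usp14 (0.37), Ufd1l (0.56), the ubiquitin-activating enzyme Uba1 (-0.48, unadjusted p 0.0265 by edgeR) and AI314180 (-0.23).

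The spread between F2 animals limits what such groups can show. The SD of log2 CPM between animals of a group was a median of 0.42 over the 36 members with a value, beside 0.46 over 7283 genes. The 5 F2 HFHS+DHT oocytes, which name no animal and whose labels contradict their hormone, entered no test. Their Psma7 values ran from 1310 to 1871 CPM with a median of 1596 CPM, within the range of the other F2 groups.

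Core subunits were lower in F3 oocytes than in F2 oocytes of the same lineage, while fewer subunits of the regulatory particle were. The difference between the particles itself was not tested. This comparison of generations was added after the data were seen. Psma7 had 57.9, 205.3 and 481.5 CPM as the lowest, median and highest oocyte of F3 HFHS+Veh, against 21.2, 1572 and 2347 CPM in F2 HFHS+Veh. In F3 CD+DHT it had 177.4, 436.4 and 1577 CPM, against 465.3, 1636 and 2239 CPM in F2 CD+DHT. In F3 CD+Veh it had 103.4, 198.0 and 443.9 CPM, against 1269, 1867 and 2847 CPM in F2 CD+Veh. The F3 and F2 oocytes of the CD+Veh lineage did not overlap in Psma7, those of CD+DHT overlapped, and those of HFHS+Veh overlapped through F2 oocyte 4.2, whose 21.2 CPM stood apart at 424872 counts and 5624 genes. In F1, the median Psma7 was 1084 CPM in HFHS+DHT, 1319 CPM in CD+DHT, 1163 CPM in HFHS+Veh and, in CD+Veh, 1265 CPM, between the levels of F2 and F3.

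**Figure D3:**
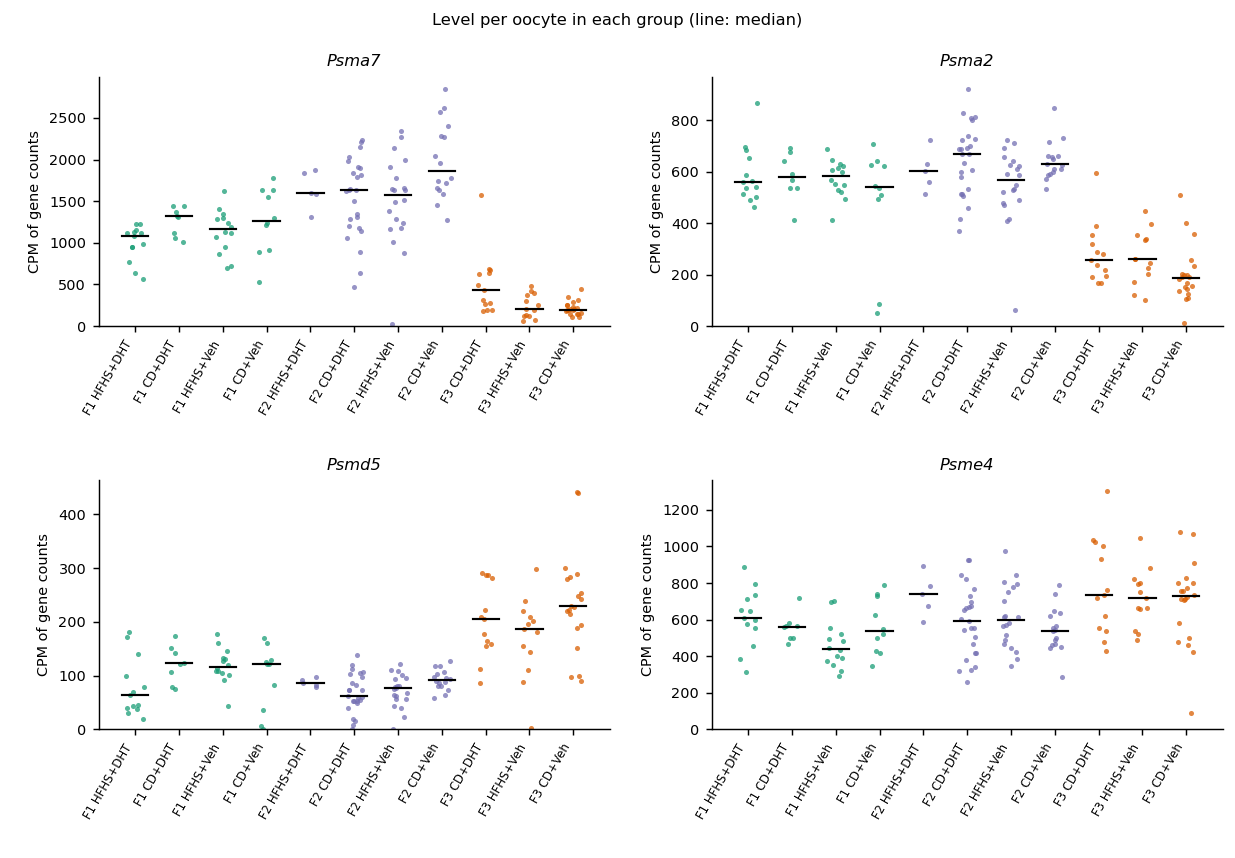
CPM per oocyte of Psma7, Psma2, Psmd5 and Psme4 in the 11 groups, 1 point per oocyte with the group median as a line. Psma7 and Psma2 lie lower in the 3 F3 groups than in F1 and F2, Psmd5 lies higher in F3, and Psme4 has F3 medians of 717.0 to 734.8 CPM.

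Psma2 had median values of 259.6 CPM in F3 HFHS+Veh, 256.6 CPM in F3 CD+DHT and 186.6 CPM in F3 CD+Veh, against 568.7, 671.0 and 628.8 CPM in the F2 groups of those lineages. Psmd5 went the other way. This chaperone of the base had medians of 187.1, 205.0 and 228.6 CPM in F3 HFHS+Veh, CD+DHT and CD+Veh, against 76.5, 61.2 and 92.1 CPM in those lineages in F2. Its F1 medians were 63.7 CPM in HFHS+DHT, 122.7 CPM in CD+DHT, 116.3 CPM in HFHS+Veh and, in CD+Veh, 122.1 CPM. Psme4, the activator of nuclear proteasomes, had medians of 717.0, 734.8 and 729.5 CPM in F3 and 595.9, 590.0 and 538.6 CPM in F2 for the same lineages.

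The HFHS+Veh lineage alone has named animals in F3 and F2, and there the difference was tested. A further F3 animal, number 25, had 8 oocytes of at most 13586 counts, and none passed the oocyte filter, which left 2 F3 animals. Psma7 had 149.7 and 293.4 CPM in F3 animals 22 and 26, against 2008, 1480, 1262 and 1999 CPM in F2 animals 4, 5, 10 and 19. The 2 F3 animals lay below all 13 F2 animals, whose lowest value was 1262 CPM. In an edgeR fit of these 2 F3 animals together with the 13 F2 animals, across all genes, Psma7 fell by 2.74 on the log2 scale in F3 (SE 0.36, adjusted p 3.4e-05). In all, 14 of 46 members tested were called (13 lower and 1 higher), beside 24.6% of 13314 genes (14.7% lower, 9.91% higher). The members' median log2 fold was -0.88 and that of all genes -0.50.

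By role, 8 of 14 core subunits were called, all lower, against 3 of 17 subunits of the regulatory particle. After Psma7 the core calls were Psmb2 (log2 fold -1.80, edgeR adjusted p 0.000787), Psma4 (-1.84), Psmb3 (-2.05), Psma2 (-1.05), Psmb6 (-1.08), Psma6 (-1.44) and Psma5 (-1.54). Psmb2 had 26.498 and 44.1 CPM in the F3 animals, against 115.7 to 156.2 CPM in the 4 F2 HFHS+Veh animals, without overlap. The lid subunits Psmd3 (-2.70) and Psmd7 (-0.86) and the ubiquitin receptor Psmd4 (-0.89) were called lower, as were Psme3 (-0.99) and Psmg4 (-4.16). Psmg4 was at 0 and 0.576 CPM in F3, against 3.95 to 7.31 CPM in F2, so its fold depends on the prior count. Psmd5 rose by 1.30 (SE 0.32, edgeR adjusted p 0.00542), with 159.5 and 194.1 CPM in F3, against 84.2, 67.3, 67.8 and 105.4 CPM in F2. Psme4 (0.43), the base scaffold Psmd1 (0.51), the lid subunit Psmd11 (0.71) and the ATPases Psmc5 (0.65) and Psmc2 (0.61) had positive folds that did not pass the test, at adjusted p values from 0.0859 to 0.426 by edgeR.

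The calls rest on few animals. By edgeR with RLE scaling 3 members were called higher and 10 lower, and by DESeq2 4 higher and 14 lower, with medians over all genes of -0.35 and -0.0023. With the oocytes of contradictory generation labels left out, F3 animal 22 and F2 animal 10 were gone. That left 1 F3 animal, with no spread of its own. The members' median log2 fold was then -0.49, less far down than the -0.61 of all genes. Psma7 then had a log2 fold of -2.38 and Psmd5 one of 1.54. Psma7 and Psma4 were called under all 15 alternatives tried, while Psmd5 was called under 11 of 15, Psmd4 under 9, Psme3 under 6 and Psmd7 under 5. The other 8 calls held under 11 to 14 of 15, the lone F3 animal being assumed to vary like the other groups where 1 was left.

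**Figure D4:**
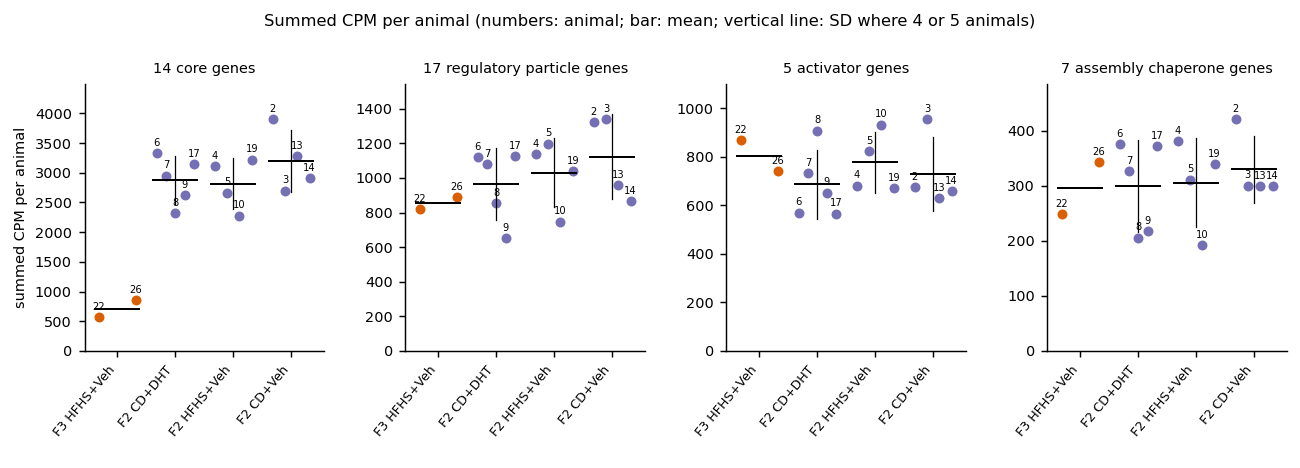
Summed CPM per animal of the 14 core, 17 regulatory particle, 5 activator and 7 chaperone genes, 1 point per animal with its number, the group mean as a bar and the SD as a vertical line in groups of 4 or 5 animals, with F3 HFHS+Veh at the left, then F2 CD+DHT, HFHS+Veh and CD+Veh. The core sums of the 2 F3 animals are 571 and 854 CPM, below all F2 animals (2277 to 3904 CPM), while their regulatory particle sums of 821 and 889 CPM lie within the F2 range (654 to 1340 CPM).

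The balance of summed CPM between the particles differed accordingly, and it leans on Psma7 and Psma2, which dominate the core sum. Summed over genes, core over regulatory particle CPM was 0.696 and 0.961 in the F3 HFHS+Veh animals 22 and 26, against 2.01 to 4.02 in the 13 F2 animals. Per oocyte the median ratio was 2.28 in F1, 2.99 in F2 and 0.828 in F3. The ratio compares sums of read counts and is no ratio of molecules, since longer messages yield more reads. Some oocytes stood apart. F3 CD+Veh oocyte 21 had a ratio of 0.125, with a regulatory particle sum of 4887 CPM and 71593 CPM of cumulus markers. F3 CD+DHT oocyte 7 had a ratio of 4.11, and F3 CD+DHT oocyte 5 a core sum of 2642 CPM at 205518 counts. Within F3 CD+DHT, core CPM and total counts had a Spearman's rho of -0.92 over 13 oocytes, so the shallower oocytes of that group had the higher core values.

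The other lineages name no animal in F3, and were compared as pooled counts with no test. A member was counted where it differed by more than 1.5-fold, among the 34 members that reached a pooled 5 CPM over the series, as 7332 genes did. The other 16 members did not enter. In F3 against F2, 2 members were higher and 21 lower in HFHS+Veh (24.9% and 43.3% of all genes), 3 higher and 19 lower in CD+DHT (27.2% and 34.6%), and 2 higher and 20 lower in CD+Veh (24.3% and 39.7%). The lineages share no oocytes in this comparison. The members' median log2 fold was -1.03 in HFHS+Veh, -0.80 in CD+DHT and -0.93 in CD+Veh, beside -0.33, -0.08 and -0.23 over all genes. TMM scaling, which moved the median of all genes to -0.09, 0.06 and 0.13, gave the members medians of -0.79, -0.66 and -0.57. It gave 5 members higher and 19 lower in HFHS+Veh, 4 and 19 in CD+DHT, and 6 and 17 in CD+Veh, where all genes turned to 2591 higher and 2221 lower, against 1779 and 2911 in CPM. With the mean of oocytes, CD+Veh had 5 members higher and 15 lower, with a median of -0.53. Over all genes 1980 were then higher and 2757 lower, with a median of -0.14. Without the oocytes of contradictory generation labels, HFHS+Veh had 2 members higher and 18 lower, with a median of -0.62. Over all genes 1788 were then higher and 3161 lower, with a median of -0.33.

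Of the 34 members, 16 were past the fold and lower in all 3 lineages, which is 47.1%, beside 26.81% of all genes. They were 9 of 11 core subunits, 6 of 16 regulatory particle subunits and the alpha-ring chaperone Psmg1. Psmd5 was past the fold and higher in all 3, which is 2.94% of members beside 14.51% of all genes. The largest differences were those of Psma7, with log2 folds of -3.04 in HFHS+Veh, -2.84 in CD+DHT and -3.14 in CD+Veh, and Psmb3, at -2.35, -2.17 and -2.58. The lid subunit Psmd3 had -2.95 in HFHS+Veh and the ATPase Psmc1 -2.64 in CD+Veh. Psmd5 had 1.02, 1.37 and 1.40. Psmc2 (0.63) was the other member past the fold and higher in HFHS+Veh, Psmd11 (0.69) and Psmc5 (0.60) in CD+DHT, and Psmd1 (0.59) in CD+Veh. By role the medians for HFHS+Veh, CD+DHT and CD+Veh were -1.65, -1.75 and -1.68 for alpha subunits, -1.37, -1.20 and -1.87 for beta subunits, -0.28, -0.50 and -0.35 for base ATPases, and -0.61, -0.66 and -0.76 for other base and lid subunits.

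**Figure D5:**
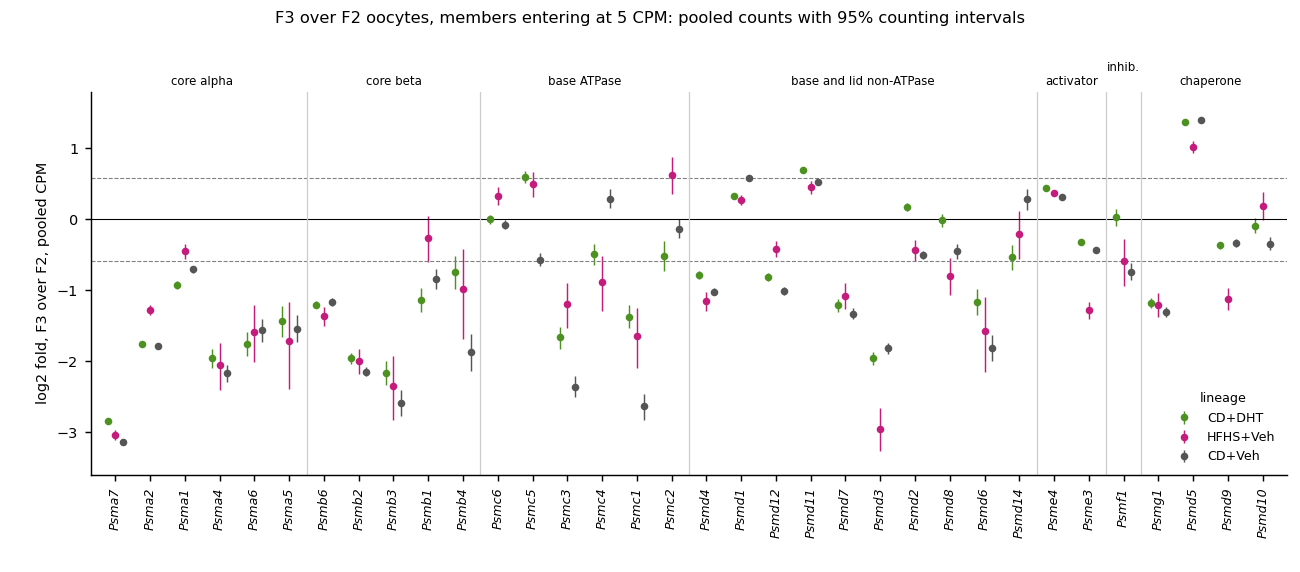
Log2 fold of F3 over F2 in pooled CPM for the 34 members that entered, by role, in the HFHS+Veh, CD+DHT and CD+Veh lineages, with 95% intervals for counting error; dashed lines mark 1.5-fold. Most core subunits lie below the lower dashed line in all 3 lineages, with Psma7 at -3.04, -2.84 and -3.14, and Psmd5 lies above the upper one.

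Message length moved with this result. The core subunits that entered have implied lengths of 728 to 1251 bases (median 993), those of the regulatory particle 1273 to 3245 bases (median 1577). Over all 468 genes under 1000 bases, the median log2 fold of F3 against F2 was -2.13 in HFHS+Veh, -2.01 in CD+DHT and -2.21 in CD+Veh. The 7 members of that length had -1.58, -1.75 and -1.87. Over the 3202 genes of 1000 to 3000 bases it was -0.35, -0.13 and -0.22, where the 24 members had -0.84, -0.66 and -0.63, and over the 3662 longer genes -0.13, 0.13 and -0.07, where 3 members had 0.27, 0.33 and 0.31. By these medians the members under 1000 bases were no lower than all genes of that bin, and those of 1000 to 3000 bases were lower than all genes of theirs. Neither was tested. The 1000 to 3000 base bin is wide, and members were not matched within it to genes of their own length. The generations also differ in depth, genes detected and spike-in share as given above, and no label separates generation from when libraries were prepared or sequenced, so generation and preparation cannot be told apart. The summed cumulus markers had medians of 3458 CPM in F3 HFHS+Veh, 1796 CPM in F3 CD+DHT and 3037 CPM in F3 CD+Veh. In those lineages in F2 the medians were 953.1, 977.5 and 911.7 CPM. Which of the markers carried the difference was not examined. Without the oocytes high in those markers, Psma7 had a log2 fold of -3.17 in CD+Veh. The part of length, depth and cumulus reads in the generation values was not tested.

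Other genes of the pathway were mixed. In the HFHS+Veh animals, 13 of 29 tested were called by edgeR, 4 higher and 9 lower in F3. The proteasome-bound deubiquitinase Usp14 was the furthest up (log2 fold 4.14, SE 0.31, edgeR adjusted p 3.14e-07), with pooled values of 940.9 CPM in F3 and 62.1 CPM in F2. Nfe2l2, a transcription factor of stress responses, rose by 2.23, and the small lid subunit Shfm1 fell by 3.70 in that test. Pooled, Usp14 had log2 folds of 3.92 in HFHS+Veh, 2.49 in CD+DHT and 3.39 in CD+Veh, and Shfm1 -3.89, -3.77 and -4.11. The maturation factor Pomp fell by 1.60 in the HFHS+Veh animals and had -1.84 in CD+DHT. Nploc4, a partner of the unfoldase Vcp, had 0 counts in F3 HFHS+Veh and 6.39 CPM in F2 HFHS+Veh. Past 1.5-fold in pooled counts, 4 of 24 were higher and 11 lower in HFHS+Veh, 9 higher and 10 lower in CD+DHT, and 6 higher and 12 lower in CD+Veh.

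F2 differed less from F1. In HFHS+Veh, 2 members were higher (Psma4 at 0.76 and Psma6 at 0.59 on the log2 scale) and 2 lower (Psmb4 at -0.86 and Psmb1 at -0.69), beside 10.04% and 8.22% of all genes. Without the oocytes of contradictory generation labels 2 were higher and 2 lower there, and the members' median was 0.02 in place of -0.07. In CD+DHT, Psmc3 (0.98), Psmb4 (0.74) and the lid subunit Psmd6 (0.70) were higher and Psmc2 (-0.86) lower, beside 9.38% and 6.49%. In CD+Veh, 5 were higher (Psmc3 at 0.90, Psmc1 at 0.86, Psma4 at 0.79, Psmb4 at 0.65 and Psmd3 at 0.62) and 2 lower (Psmd9 at -0.68 and Psmc4 at -0.60), beside 19.37% and 7.06%. With TMM scaling 3 were higher and 4 lower there, the members' median was -0.10 in place of 0.09, and 856 genes were higher and 1004 lower in place of 1420 and 518. With the mean of oocytes Psmb4 turned to -0.17 and Psmc4 to 0.18. That CD+Veh count of 7 became 4 without F1 oocyte 1 or without F2 oocyte 3.1. No member was past the fold in 1 direction in all 3 lineages, against 1.51% of all genes higher and 0.996% lower. Psma7, at 0.56 in HFHS+Veh, stayed within the fold.

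Within F1, few members were past the fold by treatment of the founding female, and most of them were at low levels. Values are pooled CPM with 1 sample a group and no test, and the comparisons share groups. In CD+DHT against CD+Veh, 0 members were higher and 3 lower (7.27% and 9.25% of all genes). They were the ATPases Psmc4 (9.62 CPM in CD+DHT and 20.2 CPM in CD+Veh, log2 fold -1.06) and Psmc3 (-0.65) and the lid subunit Psmd8 (-0.59), and the largest positive folds were those of Psmd3 (0.47), Psmb2 (0.39) and Psme3 (0.34). The count was 5 without CD+DHT oocyte 2, CD+Veh oocyte 1 or CD+Veh oocyte 6. Psmc4 went to -0.63 without CD+DHT oocyte 6. In HFHS+Veh against CD+Veh, Psmb4 was higher (11.1 CPM in HFHS+Veh, against 6.02 CPM in CD+Veh, 0.87) and the inhibitor Psmf1 lower (-0.65), beside 6.97% and 4.08%. Both were within the fold without HFHS+Veh oocyte 1, which was high in cumulus markers and whose group carries the contradictory hormone labels.

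The combined treatment in F1 gave counts that moved with single oocytes. In HFHS+DHT against CD+Veh, 0 members were higher and 5 lower (6.82% and 10.9% of all genes), namely Psmd6 (7.48 CPM in HFHS+DHT and 13 CPM in CD+Veh, log2 fold -0.79), Psmf1 (-0.76), Psmd8 (-0.70), Psmc3 (-0.66) and Psmb3 (-0.62). Positive folds reached 0.23 in Psma6, 0.19 in Psmb4 and 0.17 in Psme3. The count was 10 without HFHS+DHT oocyte 10, 3 without HFHS+DHT oocyte 12 and 2 without CD+Veh oocyte 6. In HFHS+DHT against CD+DHT, Psmc4 (0.94) and Psmb4 (0.74) were higher and Psmf1 (-0.71) and Psma5 (-0.63) lower, beside 7.92% and 8.91%. Psma5 turned to 0.10 with the mean or median of oocytes. It was a count of 4 that was 7 without HFHS+DHT oocyte 10 and 2 without CD+DHT oocyte 6. In HFHS+DHT against HFHS+Veh, 0 were higher and 2 lower, Psmd6 (-0.80) and Psmb4 (-0.68), beside 3.07% and 10.39%. With TMM scaling 346 genes were higher and 614 lower there, against 225 and 762 in CPM. That count was 10 without HFHS+DHT oocyte 10, and 1 without HFHS+DHT oocyte 12, HFHS+Veh oocyte 1 or HFHS+Veh oocyte 13. Psma7 and Psma2 were within 1.5-fold in all 5 F1 comparisons. No oocyte of F1 HFHS+Veh is left without those of contradictory hormone label, so its values cannot be given without them.

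Within F3, more members were past the fold, and so were more genes of all kinds. In CD+DHT against CD+Veh, Psmb4 (0.68), Psmc5 (0.67) and Psmc1 (0.67) were higher and Psmc2 (-1.43), Psmd14 (-0.74) and Psmc4 (-0.72) lower, beside 14.7% and 14.6% of all genes. With the mean of oocytes Psmb4 turned to -1.41 and Psmc5 to -0.17. Psmc2 had 5.12 CPM in CD+DHT and 13.8 CPM in CD+Veh, and its log2 fold was -0.66 without the 3 CD+Veh oocytes high in cumulus markers, where that of Psmd14 was -0.09. In HFHS+Veh against CD+Veh, Psmc5 was higher (0.74) and Psmc4 (-1.09), Psmd3 (-1.06), Psme3 (-0.88) and Psma5 (-0.68) lower, beside 9.37% and 21.9%. Psme3 had 71.5 CPM in HFHS+Veh, against 131.3 CPM in CD+Veh. Next on the higher side were Psmc3 (0.55) and Psmc1 (0.42). This count of 5 was 8 without CD+Veh oocyte 19, 11 without the oocytes high in cumulus markers, and 9 without HFHS+Veh animal 22, whose labels name F2.

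In F3 CD+DHT against HFHS+Veh, 6 members were higher and 2 lower (26.31% and 13.7% of all genes). The higher ones were the base chaperone Psmd9 (90.3 CPM in CD+DHT and 46.6 CPM in HFHS+Veh, log2 fold 0.95), Psmd8 (0.88), Psmd3 (0.79), Psmf1 (0.73), Psme3 (0.70) and Psmd6 (0.60). The lower ones were Psmc2 (-1.80) and Psmb1 (-0.63), followed by Psmd14 at -0.45, within the fold. Psmd6 turned to -0.93 with the median of oocytes. Without animal 22 the count of 8 became 5. Psma7 was within the fold in all 3 F3 comparisons of pooled counts. Its median per oocyte was 436.4 CPM in CD+DHT, against 205.3 CPM in HFHS+Veh and, in CD+Veh, 198.0 CPM. Deep oocytes weigh most in a pool, and in CD+DHT they had the lower core values.

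Of the other proteasome and ubiquitin genes, 24 reached 5 CPM. In F1 at most 4 of these were past the fold in a comparison. In F1 CD+DHT against CD+Veh, 3 were higher and 1 lower, led by Nploc4 (1.51) and Rad23b (0.84), and by Ddi2 (-1.45) and, within the fold, Uba6 (-0.24). Nploc4 also led HFHS+Veh against CD+Veh (1.17) and HFHS+DHT against CD+Veh (1.18), at 2.31 CPM in CD+Veh. On the other side stood AI314180 (-0.31) and Txnl1 (-0.09) in HFHS+Veh, and Ufd1l (-0.85) and AI314180 (-0.52) in HFHS+DHT. In HFHS+DHT, Zfand5 (0.49) was also on the higher side. In F1 HFHS+DHT against CD+DHT the largest folds were those of Ddi2 (1.18), Uba6 (0.53), Ufd1l (-0.64) and Rad23b (-0.59), and against HFHS+Veh those of Ubqln2 (0.41), Akirin2 (0.35), Ufd1l (-0.81) and Ddi2 (-0.64).

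In F3, 3 of the 24 were higher and 0 lower in CD+DHT against CD+Veh, 1 higher and 4 lower in HFHS+Veh against CD+Veh, and 5 higher and 1 lower in CD+DHT against HFHS+Veh. Usp14 differed between the lineages at high counts, with pooled values of 476.1 CPM in CD+DHT against 940.9 CPM in HFHS+Veh and, in CD+Veh, 710.2 CPM. Its log2 fold was -0.98 in CD+DHT against HFHS+Veh, -0.58 in CD+DHT against CD+Veh and 0.41 in HFHS+Veh against CD+Veh. In CD+DHT against CD+Veh, Nploc4 (2.98) and Ddi2 (0.96) were also far out, and in HFHS+Veh against CD+Veh Nfe2l2 (0.71). In CD+DHT against HFHS+Veh they were Ddi2 (1.79) and Uba6 (-0.47), while Nploc4 had 9.88 CPM in CD+DHT and 0 counts in HFHS+Veh.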

How the data were processed

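The authors deposited raw counts per gene symbol and RPKM values for the same oocytes. The mm10 build, STAR 2.4.2a and Seurat 2.0 stand, with no role, in the submitters' processing notes. How reads were counted, with which annotation and whether by strand is not given in the sources used here, so reads shared between near-identical or overlapping genes may be split or lost, and the gene lengths behind the deposited RPKM values are not known. Implied length is the median of CPM over RPKM. Repeated symbols (494 of 24489 gene lines) were summed, and 92 ERCC lines and 1 eGFP line were left out. The deposited normalised tables, which cover part of the oocytes, were not used.

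CPM is counts per 1000000 gene counts in oocytes with at least 100000 counts and 4000 genes, which left out 45 of 202. In F2, counts summed per animal were tested with edgeR 4.0.16 (quasi-likelihood, TMM, filterByExpr, Benjamini-Hochberg, threshold 0.05), with limma 3.58.1 and DESeq2 1.42.0 as alternatives, in R 4.3.3. Elsewhere counts were pooled per group, with a fold of 1.5, a minimum of 5 CPM over the series, 0.5 counts added, and exact Poisson 95% intervals that cover counting error only. Copies were found with BLAST+ 2.17.0, and other steps used Python 3.11.15, pandas 2.3.3 and SciPy 1.17.1. The edgeR test of the F2 comparisons and the pooled fold of an F1 comparison were tried on simulated data. The edgeR test of F3 against F2 was not. Groups come from the titles. Nothing in the labels says that animals of a group came from separate litters, so p-values measure only the spread between these animals.

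The members and lists were chosen with earlier results of these data known. The members named are those past the threshold and the 3 with the smallest p (F2) or largest fold (F1, F3) in each direction, or up to 6 past the fold. Of the other pathway genes the 2 furthest in each direction are named, except some that are not reported here, and of the levels the 5 highest and lowest and all members outside the standard particles. Positions are from GENCODE vM21 and RefSeq, both on GRCm38. The minimum detectable level is taken as 3 counts, and no fold is given against a group at 0.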

Additional observations from a re-analysis of the deposited data

Results flagged for a closer look

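In groups of 4 or 5 F2 animals, 10 of 129 sets of values had 1 animal whose gap to the nearest other was large for the group's range, which is 7.75%. Chance flags about 1 in 20 groups. Animal 8 of CD+DHT stood apart for 3 members. It had 57.2 CPM of the alpha subunit Psma4 (33.6 to 40.3 CPM in the other CD+DHT animals), 41.4 CPM of the ATPase Psmc6 (67.3 to 77.0 CPM) and 157.6 CPM of the lid subunit Psmd12 (105.3 to 119.4 CPM). Animal 10 of HFHS+Veh, all of whose oocytes carry labels that name F3, had 21.9 CPM of the ATPase Psmc2 (8.93 to 10.7 CPM in the other HFHS+Veh animals) and 101.3 CPM of the ubiquitin receptor Psmd4 (153.1 to 161.0 CPM). Animal 5 of HFHS+Veh had 71.6 CPM of Psma4 (32.8 to 37.3 CPM). Animal 3 of CD+Veh had 20.9 CPM of Psma5 (10.6 to 11.7 CPM in the other CD+Veh animals), 955.6 CPM summed over the activators (628.5 to 675.6 CPM) and 4.25 CPM over the inducible and tissue-specific subunits (0 to 0.587 CPM). Animal 2 of CD+Veh had 421.1 CPM over the assembly chaperones (298.9 to 300.4 CPM).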

How the results depend on the processing

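In F2, the count of members called stayed at 0 in the 3 comparisons under the alternatives run (RLE scaling, no gene filter, 2 groups, DESeq2, limma, the stricter oocyte filter, without contradictory labels and without each animal). In HFHS+Veh, F3 against F2, the members' median log2 fold was -0.88, beside -0.50 over all genes. Without oocytes of contradictory generation, which leaves 1 F3 animal, it was -0.49, beside -0.61 over all genes. With single F2 animals left out, 12 to 16 members were called, beside 21.68% to 25.76% of all genes. The members' median then ran from -0.97 to -0.69, beside -0.53 to -0.36 over all genes. Without F3 animal 22 the members' median was -0.71, beside -0.73 over all genes. Without F3 animal 26 it was -1.23, beside -1.06. Each of these 2 fits leaves 1 F3 animal. With limma on log2(RPKM + 0.1) the members' median was -1.41, beside -1.01 over all genes. Psma7 kept an adjusted p of at most 0.00508 throughout, while Psmd5 reached 0.123, with log2 folds from 1.01 to 1.54.

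Counts of members past the fold within F1 and F3 depended on nearly every setting. They are given here for F1 CD+DHT, HFHS+Veh and HFHS+DHT against CD+Veh, F1 HFHS+DHT against CD+DHT and against HFHS+Veh (3, 2, 5, 4 and 2), then F3 CD+DHT and HFHS+Veh against CD+Veh and CD+DHT against HFHS+Veh (6, 5 and 8), where they moved by more than 1.5 times. At 2-fold they were 1, 0, 0, 0 and 0 in F1 and 1, 2 and 1 in F3. With a minimum of 1 CPM they were 9, 8, 12, 8 and 4 in F1 and 8 and 14 in the last 2 of F3. With 20 CPM they were 0, 3, 0 and 0 in the last 4 of F1 and 1, 3 and 4 in F3. With the mean over oocytes they were 5, 8, 9 and 7 in the last 4 of F1 and 11 and 11 in the first 2 of F3, with the mean RPKM 5, 8, 9 and 7, and 10 and 11, and with the median over oocytes 1, 5, 9, 10 and 10 in F1 and 12 in F3 HFHS+Veh against CD+Veh. Without oocytes high in cumulus markers the HFHS+Veh count against CD+Veh was 0 in F1 and 11 in F3, and that of F1 HFHS+DHT against HFHS+Veh was 1. The stricter oocyte filter gave 11 in F3 HFHS+Veh against CD+Veh. Without contradictory generation labels, F3 HFHS+Veh against CD+Veh gave 9 and CD+DHT against HFHS+Veh 5. Leaving out single oocytes gave 2 to 5, 0 to 3, 2 to 10, 2 to 7 and 1 to 10 in F1 and 4 to 8, 5 to 8 and 6 to 10 in F3. The cause of these moves was not tested.

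For F2 against F1, the counts in HFHS+Veh, CD+DHT and CD+Veh (4, 4 and 7) were 0, 0 and 0 at 2-fold, 1, 1 and 4 at 20 CPM, and 9 and 11 in the last 2 at 1 CPM. Leaving out single oocytes gave 3 to 6, 4 to 6 and 4 to 7. For F3 against F2 the counts of 23, 22 and 22, both directions together, stayed within 1.5 times under the alternatives, except 15 in HFHS+Veh at 20 CPM. Leaving out single oocytes gave counts of 21 to 24, 21 to 24 and 21 to 23.

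Some single members turned direction. Psma5 in F1 HFHS+DHT against CD+DHT had log2 folds of 0.10 with the mean, the median and the mean RPKM. In F3 CD+DHT against CD+Veh, Psmc5 had -0.17 with the mean and -0.12 with the mean RPKM, and Psmb4 -1.41 and -1.26. In F3 CD+DHT against HFHS+Veh, Psmd6 had -0.93 with the median, and -0.090 to 0.97 without single oocytes. In CD+Veh, F2 against F1, Psmc4 had 0.18, 0.10 and 0.19 with the mean, the median and the mean RPKM, and Psmb4 -0.17, -0.90 and -0.16, and -0.26 to 0.87 without single oocytes.

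No paired analysis was possible because animal and oocyte numbers are not shared between the groups compared as the same animal. Depth limits low members most: Psmb5, Psmd13 and the inducible subunits rest on a few counts per oocyte, and pooled folds near 5 CPM move with single oocytes.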

Other observations

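Partners of the inducible proteasome in antigen presentation, a list of 8, were mostly as sparse as its subunits. The peptide transporter genes Tap1 and Tap2 were detected in 10 and 22 of 157 oocytes, the trimming enzyme Erap1 in 19 and the regulator Nlrc5 in 5. B2m, the light chain of class I molecules, was detected in 148 oocytes at a median of 12.4 CPM, and Irf1 in 132. In F3 against F2, pooled and untested, B2m had log2 folds of -1.83 in HFHS+Veh, -1.38 in CD+DHT and -2.25 in CD+Veh.

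From oocyte to oocyte, the summed core and regulatory particle CPM ran together in F1 (Spearman's rho 0.64, n = 45) and F2 (0.55, n = 66) but not in F3 (-0.03, n = 46). Psma7 and Psma2 had a rho of 0.20 in F1, 0.28 in F2 and 0.70 in F3. Oocytes of a generation share library preparation and differ in depth, and CPM values share a total. Core CPM and total counts had a rho of 0.24 in F1, 0.38 in F2 and -0.54 in F3.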
